A study of Mus musculus with 6 samples.

Results

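Slc2a1, Ldha and Pdk1 code for proteins at successive points of glucose use, and their transcripts were followed here in NIT-1 cells with and without cadmium. The genes were taken by name, each from the brightest probe that carries a single gene symbol, which gave 3 of the 18572 genes measured, and each had 1 such probe. NIT-1 is a mouse beta cell line grown from an insulinoma of a non-obese diabetic mouse that carries a viral large T antigen under an insulin promoter. Cells were kept in plates for 24 h and then for 24 h in culture medium alone (control, dose 0) or in medium with 4 µmol/L CdSO4 (cadmium), with 3 arrays in each group that the labels call biological replicates. All cultures grew in the same serum-containing medium with penicillin and streptomycin, and the labels do not give its glucose content. The labels do not tell whether these replicates were grown on different days or from different passages, and p-values therefore cover only the spread among these cultures, which may be technical.

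Slc2a1 encodes GLUT1, the widespread transporter that brings glucose across the plasma membrane. Ldha encodes the lactate dehydrogenase subunit that favours the reduction of pyruvate to lactate, and Pdk1 encodes a kinase that phosphorylates and inhibits the pyruvate dehydrogenase complex, the gate from pyruvate to the mitochondrial citric acid cycle. All 3 genes are classical targets of hypoxia-inducible factor HIF-1, a dimer of HIF-1α and ARNT. Normal adult beta cells keep lactate dehydrogenase A very low and send most pyruvate to the mitochondria, where its oxidation is coupled to insulin release. In mouse beta cells GLUT2, the product of Slc2a2, is the main glucose transporter.

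The promoter windows of the members are shown because the HIF-1 core letters ACGTG and GCGTG are read in them. Each window runs from 250 bases before to 50 bases after a RefSeq start site on the forward strand of build GRCm38.p6, and capitals mark ACGTG and GCGTG on either strand. The windows lie at chr4:119108495-119108794 for Slc2a1, chr7:46845554-46845853 for Ldha and chr2:71872974-71873273 for Pdk1. For Ldha and Pdk1, which have 2 listed starts each, the start of lower coordinate is printed.
Slc2a1: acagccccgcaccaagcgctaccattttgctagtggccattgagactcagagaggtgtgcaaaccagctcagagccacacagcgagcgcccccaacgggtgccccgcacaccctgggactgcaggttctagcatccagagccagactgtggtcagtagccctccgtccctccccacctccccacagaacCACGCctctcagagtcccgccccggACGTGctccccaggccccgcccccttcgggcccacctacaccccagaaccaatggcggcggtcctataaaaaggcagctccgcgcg
Ldha: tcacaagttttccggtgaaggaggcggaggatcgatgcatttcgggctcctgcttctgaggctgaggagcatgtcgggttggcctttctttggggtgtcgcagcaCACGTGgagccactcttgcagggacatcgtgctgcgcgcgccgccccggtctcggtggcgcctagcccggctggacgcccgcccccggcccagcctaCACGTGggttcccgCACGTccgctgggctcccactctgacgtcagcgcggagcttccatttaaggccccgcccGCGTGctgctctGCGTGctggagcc
Pdk1: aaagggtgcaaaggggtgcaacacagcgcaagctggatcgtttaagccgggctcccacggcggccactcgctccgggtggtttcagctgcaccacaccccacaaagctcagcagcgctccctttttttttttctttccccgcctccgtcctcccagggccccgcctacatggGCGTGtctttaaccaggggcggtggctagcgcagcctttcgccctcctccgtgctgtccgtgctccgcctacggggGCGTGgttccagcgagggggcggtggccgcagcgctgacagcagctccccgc

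The Slc2a1 window held 1 match to ACGTG, 36 bases before the start, and 1 to GCGTG. The Ldha window held 5 matches to ACGTG, of which 4 came from 2 copies of the palindrome CACGTG, an E-box read once on each strand, and 2 matches to GCGTG. The Pdk1 window held 2 matches to GCGTG and 0 to ACGTG. At the other listed start, Ldha had 2 matches to GCGTG and Pdk1 had 0 matches to either. Such letters are common: 43.8% of all 32851 RefSeq windows of this length held at least 1 match to ACGTG or GCGTG, 20.6% held 2 or more, and 7.15% held CACGTG. A match describes the letters in the window and not the binding of a factor, which was not measured.

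**Figure D1:**
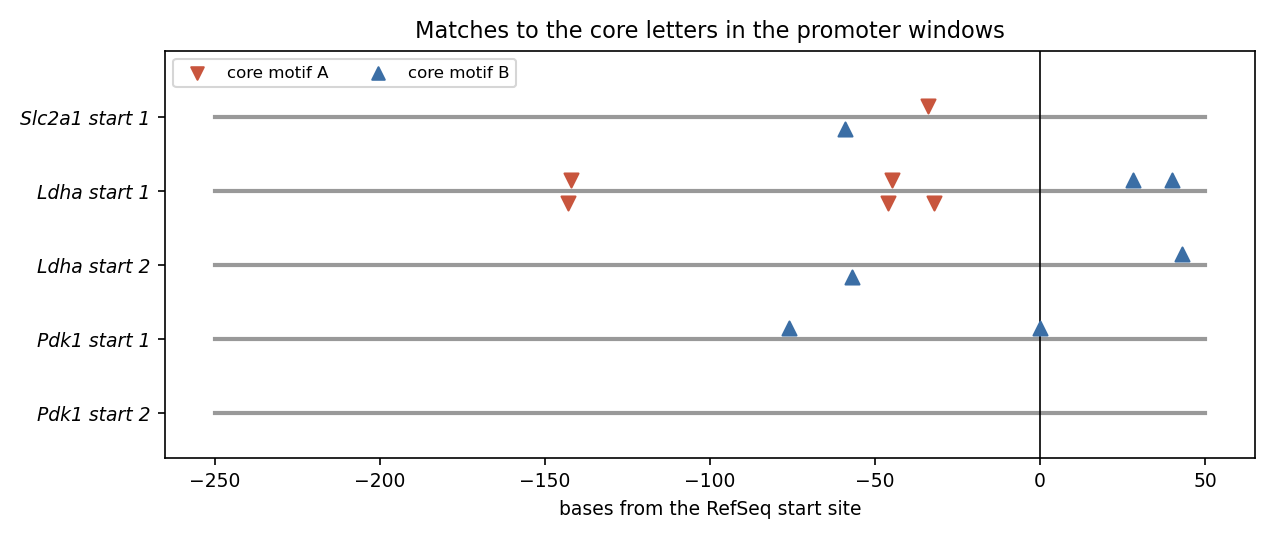
Positions of matches to ACGTG (core motif A, red) and GCGTG (core motif B, blue) in bases from the RefSeq start site, for the 5 listed starts of the 3 genes; symbols above a line lie on the forward strand and below it on the reverse strand. The Ldha window with 7 matches holds more than the windows of Slc2a1 and Pdk1, with 2 each at their start 1.

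Signals are the values deposited by the authors, 1 per transcript cluster and array, taken as log2. A value was read against probe sets that the array names as negative controls. Their 95th percentile averaged 6.18 over the arrays and serves as an approximate background bound. Of all genes, 13.1% had a group mean at or above it. Array medians over all transcript clusters lay between 3.34 and 3.40, and the lowest correlation between arrays of a group was 0.994 and the highest between groups was 0.991. Of the 6 beta cell markers measured (Ins2, Iapp, Pdx1, Nkx6-1, Slc2a2 and G6pc2), 0 had a group mean above the bound. The labelled cell type therefore was not borne out by these markers at this sensitivity. Their summed linear signal was 109 to 117 on control arrays and 118 to 120 on cadmium arrays. In these bulk samples fewer cells of a type and less RNA per cell cannot be told apart.

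All 3 members fell with cadmium (limma, Benjamini-Hochberg adjusted p under 0.05 over 18572 genes), where 5.8% of all genes were called lower. The members were chosen with earlier results of these data known, so that share is no test of them as a set. The groups did not overlap in any of the 3, and 13.1% of all genes lay lower on every cadmium array than on each control array. The log2 signal fell by 0.77 for Slc2a1, by 0.39 for Ldha and by 0.31 for Pdk1. Ldha and Pdk1 lay below the background bound in both groups, so the sizes of the 3 changes give no order of the transcripts. An exact two-sided permutation test of each gene gave p = 0.1, the smallest that 3 against 3 arrays allow.

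**Figure D2:**
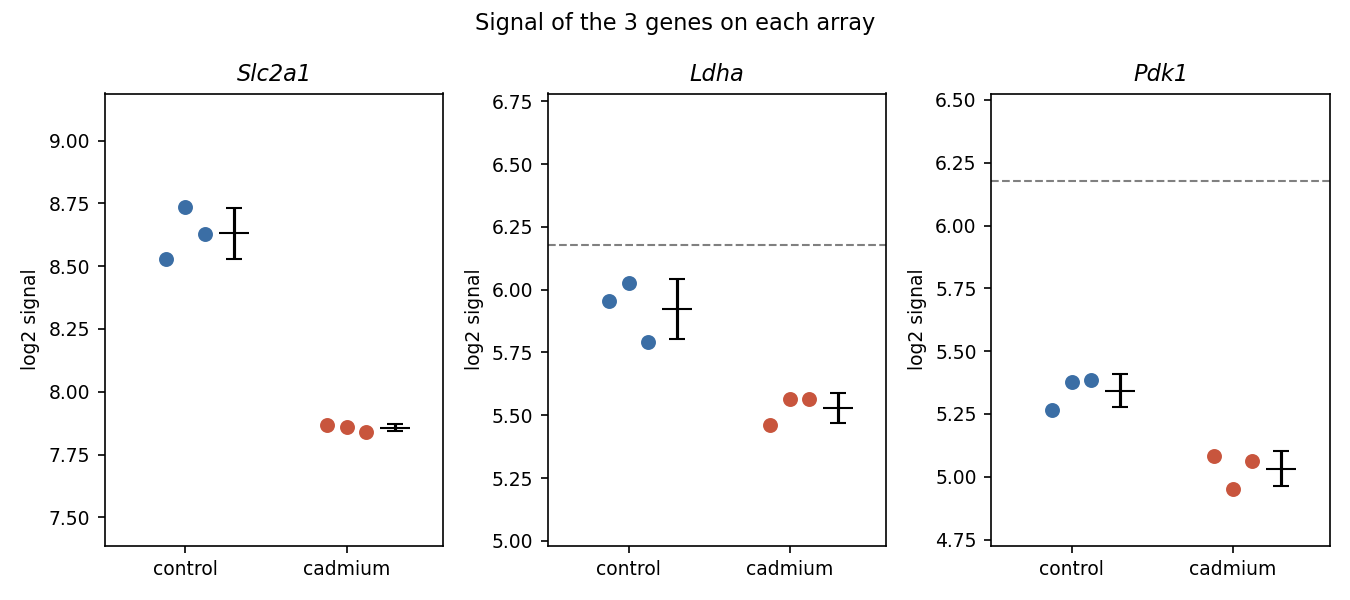
Log2 signal of Slc2a1, Ldha and Pdk1 on each control (blue) and cadmium (red) array, with group mean and SD in black (n = 3). Each panel spans the same range of signal, and the dashed line is the background bound of 6.18; every cadmium point lies below every control point of its gene, and all points of Ldha and Pdk1 lie below the bound.

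Slc2a1 read 8.53, 8.73 and 8.63 on control replicates 1, 2 and 3, and 7.87, 7.86 and 7.84 on cadmium replicates 1, 2 and 3. Every array was above the bound, and the cadmium arrays lay closer together than the control arrays. The means were 8.63 ± 0.10 and 7.86 ± 0.01 (SD, n = 3), a 1.71-fold lower signal with cadmium. The change was -0.77 ± 0.06 (SE, 95% interval -0.92 to -0.63, limma adjusted p = 0.00146). By size it ranked 62 among the 1078 genes called lower, and 16 among the 196 of these with both group means above the bound. The call held without any 1 of the 6 arrays, at adjusted p of 0.00261 to 0.0114.

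Ldha read 5.96, 6.02 and 5.79 on control replicates 1, 2 and 3, and 5.46, 5.57 and 5.56 on cadmium replicates 1, 2 and 3. Both groups lay below the bound, so no fold is given. The signal exceeded 93.2% to 94.0% of negative controls on control arrays and 90.7% to 91.9% on cadmium arrays. The means were 5.92 ± 0.12 and 5.53 ± 0.06 (SD, n = 3). The change was -0.39 ± 0.07 (SE, 95% interval -0.57 to -0.22, limma adjusted p = 0.0155). The call ended without control replicate 1 or 2 (adjusted p of 0.0628 and 0.0580) and without cadmium replicate 2 or 3 (0.0508 and 0.0511), while the change stayed between -0.46 and -0.34 without any 1 array.

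Pdk1 read 5.27, 5.38 and 5.39 on control replicates 1, 2 and 3, and 5.08, 4.95 and 5.06 on cadmium replicates 1, 2 and 3. The 2 groups were separated by a gap between 5.08 and 5.27, again below the bound. The signal exceeded 89.4% to 90.5% of negative controls on control arrays and 87.3% to 88.4% on cadmium arrays. The means were 5.34 ± 0.07 and 5.03 ± 0.07 (SD, n = 3). The change was -0.31 ± 0.06 (SE, 95% interval -0.46 to -0.17, limma adjusted p = 0.0197). The call ended without control replicate 2 (adjusted p = 0.0788), cadmium replicate 2 (0.0697) or cadmium replicate 3 (0.0584).

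Some background probes of the array moved the other way. The 10 GC-rich background probe sets, named GC16 to GC25, averaged 5.16 to 5.25 on control arrays and 5.38 to 5.45 on cadmium arrays. The difference was 0.22 (exact permutation p = 0.1). With each array centred on all 23 background sets, an alternative chosen after seeing the data, the changes were -0.89 for Slc2a1, -0.51 for Ldha and -0.42 for Pdk1. That centring moved the median change of all genes by -0.11. The part of this background in the results was not tested further.

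The changes in deposited signal were compared within arrays, where an offset of a whole array cancels. Ldha and Pdk1 were below the bound in both groups, so these differences are between signals and do not show that one transcript fell more than another. The change of Slc2a1 minus that of Ldha was -0.38 (95% interval -0.62 to -0.14), and minus that of Pdk1 it was -0.46 (-0.62 to -0.31). In both pairs the within-array differences of the groups did not overlap, and the exact permutation p of 0.1, the smallest possible, became 0.15 after adjustment over the 3 pairs. Ldha and Pdk1 differed by -0.08 (95% interval -0.39 to 0.23, exact permutation p = 0.5), so a difference of up to that interval in either direction is not resolved by these arrays.

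Profiles over the 6 arrays were compared by the root mean square difference of log2 signals after the mean of each gene was removed, among the 1455 or 1456 genes, without predicted and small RNA genes, whose brighter group mean was at or above the bound. Of the 12 genes named here, 9 met that bound through the control group alone. The profile nearest to Slc2a1 was that of Slit2, an axon guidance ligand, at 0.050, followed by the ion channel and kinase gene Trpm7 (0.066), Phf14 (0.068) and the netrin receptor gene Neo1 (0.069). Nearest to Ldha were Cnih4 (0.028), the cytochrome P450 family member Cyp20a1 (0.031), the phosphate exporter gene Xpr1 (0.031) and Slc37a3 (0.035). Nearest to Pdk1 were the vacuolar sorting gene Vps16 (0.026), Mga (0.036), the adaptor subunit gene Ap1g1 (0.038) and Dkk3 (0.039).

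**Figure D3:**
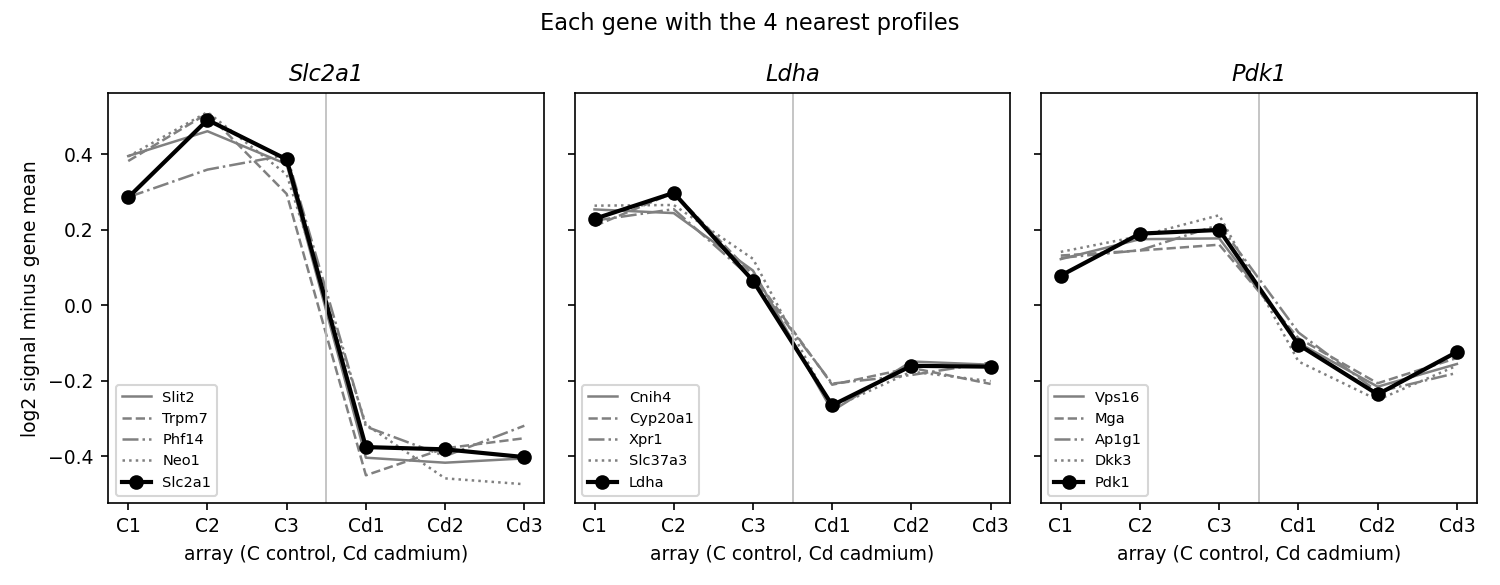
Log2 signal minus the mean of each gene on the 6 arrays (C1 to C3 control, Cd1 to Cd3 cadmium) for each member in black and the 4 genes with the nearest profile in grey. In the Ldha panel control replicate 3 lies below the other control arrays, and in the Pdk1 panel control replicate 1 is the lowest control array.

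Among the glucose transporters measured, 3 of 11 fell, the member Slc2a1 with Slc2a3 and Slc2a8, and 0 rose. For comparison with this and each list below, 5.8% of all genes were called lower and 6.45% higher. Slc2a3, a high-affinity transporter known from neurons, read 5.45, 5.56 and 5.63 in control and 4.93, 5.04 and 4.98 in cadmium arrays, a change of -0.57 ± 0.06 (SE, limma adjusted p = 0.00235) below the bound in both groups. Its arrays did not overlap, and the call held without any 1 of them. Slc2a8, an intracellular transporter, went from 6.53 ± 0.09 to 6.28 ± 0.04 (limma adjusted p = 0.0445), a call that ended without any 1 array except control replicate 3, at adjusted p of 0.0929 to 0.129. It also ended with arrays centred on the negative controls and with quantile normalization. Slc2a2, the beta cell transporter, read 3.80, 3.70 and 3.77 in control and 3.79, 3.79 and 3.87 in cadmium arrays. These values are far below the bound, and they overlap (change 0.06, limma adjusted p = 0.462). Slc2a1 and Slc2a8 were both above the bound, and within arrays the change of Slc2a1 minus that of Slc2a8 was -0.53 (95% interval -0.68 to -0.37). The exact permutation p was 0.1, and 0.112 after adjustment over 9 pairs chosen after seeing the data, of which the other 8 had a gene below the bound. Slc2a6 and Slc2a10 did not pass, at changes of -0.13 and -0.03. The median change of the list was -0.03, beside 0.04 over all genes.

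The α-arrestins Txnip and Arrdc4 promote the removal of GLUT1 from the plasma membrane. Arrdc4 rose from 4.17 ± 0.04 to 4.54 ± 0.07 (limma adjusted p = 0.00741), below the bound. Txnip read 6.09, 5.98 and 6.55 in control and 6.35, 7.27 and 7.33 in cadmium arrays. Cadmium replicate 1 fell within the range of the controls, and the difference of 0.78 did not pass (limma adjusted p = 0.111). Without cadmium replicate 1 it was 1.09 (limma adjusted p = 0.0117). Tbc1d1, a regulator of transporter trafficking, changed by 0.11 and did not pass.

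For lactate, 5 of 11 listed genes were measured and Ldha was the only one of these 5 to pass. Ldhb, the subunit of the isoenzyme that favours pyruvate, read 5.45, 5.49 and 5.35 in control and 5.44, 5.54 and 5.44 in cadmium arrays. Its groups overlap, with a change of 0.04 (limma adjusted p = 0.652). Both Ldha and Ldhb were below the bound in both groups. Ldhc, the testis form, changed by 0.18 and Ldhd, which acts on D-lactate, by -0.01. Slc16a1, the proton-linked lactate and pyruvate transporter that beta cells also keep low, was above the bound at 6.73 ± 0.29 and 6.66 ± 0.14 and did not pass (limma adjusted p = 0.809). Among the 11 measured genes that beta cells are known to keep low, 1 fell and 2 rose. The one that fell was Ldha. Acot7, an acyl-CoA thioesterase, rose by 0.67 ± 0.09 (SE, limma adjusted p = 0.00441) and Cat, catalase, by 0.43 ± 0.06 (SE, limma adjusted p = 0.0051). Oat, Smad3 and 6 others did not pass.

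Around pyruvate dehydrogenase 9 of 15 listed genes were measured. Counting the member Pdk1, 2 of the 9 fell and 0 rose, where 5.8% of all genes fell. The median change of the 9 was -0.19, beside 0.04 over all genes. Pdpr, the regulatory subunit of the phosphatase that opposes the kinases, fell with Pdk1, from 5.00 ± 0.05 to 4.63 ± 0.09 (limma adjusted p = 0.0114). Pdpr too was below the bound in both groups. The kinase gene Pdk3 was above the bound and read 7.01, 6.96 and 6.87 in control and 6.58, 6.81 and 6.80 in cadmium arrays. Its groups did not overlap, and the change of -0.22 did not pass (limma adjusted p = 0.117). Pdk4, the kinase induced by fasting, was at 3.28 to 3.39 in control and 3.45 to 3.54 in cadmium arrays (change 0.15, limma adjusted p = 0.125). Pdp1, a catalytic subunit of the phosphatase, went from 6.65 ± 0.06 to 6.78 ± 0.05 (limma adjusted p = 0.197). Pdha1, the E1α subunit of the complex itself, went from 6.95 ± 0.22 to 6.54 ± 0.11 (limma adjusted p = 0.064). It passed in 6 alternatives, among them centring on array medians, the filter at the bound and array weights.

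In glycolysis 2 of 12 measured genes fell and 2 rose, with a median change of 0.01. Pgk1, phosphoglycerate kinase, read 8.24, 8.26 and 8.18 in control and 7.95 on each cadmium array. It fell 1.21-fold (limma adjusted p = 0.012), a call that ended without control replicate 1 or 2, at adjusted p of 0.0531 to 0.0560. Eno2, the neuronal enolase, fell from 6.05 ± 0.01 to 5.65 ± 0.09 (limma adjusted p = 0.00716). Tigar, a fructose bisphosphatase that lowers glycolytic flux, rose by 0.35 ± 0.05 (SE, limma adjusted p = 0.00564), from 5.01 to 5.36. Pfkfb4 rose by 0.19 ± 0.05 (SE, limma adjusted p = 0.0421), from 5.24 to 5.44. Eno2, Tigar and Pfkfb4 were below the bound in both groups. The call of Pfkfb4 ended without any 1 array, at adjusted p of 0.0736 to 0.125, and with arrays centred on their medians or on the background sets. Gapdh was at 7.29 ± 0.05 and 7.29 ± 0.06, Aldoa at 7.01 ± 0.14 and 6.88 ± 0.08 and Hk2, a hexokinase, at 6.61 ± 0.09 and 6.77 ± 0.06, and none of these passed.

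Downstream and beside glycolysis most measured genes did not pass. In the citric acid cycle 2 of 11 fell, Idh2 (6.65 ± 0.06 to 6.37 ± 0.09, limma adjusted p = 0.034) and Idh3g (7.33 ± 0.06 to 7.09 ± 0.02, limma adjusted p = 0.0304), both isocitrate dehydrogenase genes. Idh2 lost its call without any 1 array except cadmium replicate 2 (adjusted p of 0.0642 to 0.0968) and Idh3g without any 1 array (0.0575 to 0.0939). The call of Idh2 also ended with arrays centred on the negative controls. Idh3b was at 6.23 ± 0.07 and 6.28 ± 0.06. Of 5 genes of the redox shuttles, which carry electrons from cytosolic NADH to mitochondria, the aspartate-glutamate carrier genes Slc25a12 and Slc25a13 fell, each by 0.27 ± 0.06 (SE, limma adjusted p = 0.0312 and 0.0297). Slc25a12 was below the bound in both groups and Slc25a13 in the cadmium group. Both calls ended without cadmium replicate 1, 2 or 3 or control replicate 2, that of Slc25a12 also without control replicate 3 and that of Slc25a13 without control replicate 1, at adjusted p of 0.0588 to 0.107. The call of Slc25a13 also ended with quantile normalization. Got2 was at 6.78 ± 0.05 and 6.76 ± 0.03. In the pentose phosphate pathway Taldo1, transaldolase, was the 1 gene of 5 to pass, and rose 1.37-fold from 6.19 ± 0.05 to 6.65 ± 0.09 (limma adjusted p = 0.00508). Among 3 gluconeogenesis genes the glucose 6-phosphate transporter gene Slc37a4 fell by 0.42 ± 0.06 (SE, limma adjusted p = 0.00532), below the bound in both groups.

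Other HIF targets were measured beside the members. Of 18 listed, 10 were measured, of which 4 fell and 0 rose, where 5.8% of all genes fell. The median change of the 10 was -0.28, beside 0.04 over all genes. The list was chosen with earlier results of these data known, so its count is no test of HIF targets. Kdm3a, a histone demethylase, read 6.56, 6.66 and 6.32 in control and 5.77, 5.51 and 5.54 in cadmium arrays, and fell by 0.91 ± 0.11 on the log2 scale (SE, limma adjusted p = 0.00267), at least 1.27-fold. The bound for that fold sets each cadmium array to the 95th percentile of its own negative controls. Plod2, a collagen lysyl hydroxylase, read 5.80, 6.06 and 5.55 in control and 4.73, 4.97 and 5.00 in cadmium arrays, below the bound in both groups. Its change was -0.91 ± 0.13 (SE, limma adjusted p = 0.00657). Neither gene had overlapping groups, and both calls held without any 1 array. P4ha1, a collagen prolyl hydroxylase, fell 1.25-fold (limma adjusted p = 0.0305). Ankrd37 fell by 0.23 ± 0.05 on the log2 scale (SE, limma adjusted p = 0.0272), from 3.71 to 3.47, far below the bound. Both of these calls ended without any 1 array except control replicate 3, at adjusted p of 0.0683 to 0.0959 and 0.0556 to 0.102.

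Car9, carbonic anhydrase, read 6.29, 6.47 and 6.13 in control and 5.18, 5.94 and 5.84 in cadmium arrays and did not pass (limma adjusted p = 0.0809), but did with the filter at the bound, with array weights and with centring on the background sets. Bhlhe40, a transcriptional repressor, read 7.81, 7.71 and 7.15 in control and 7.12, 6.88 and 6.98 in cadmium arrays. Its groups did not overlap by a margin of a few hundredths, the change of -0.56 did not pass (limma adjusted p = 0.074), and without control replicate 3 it was -0.76 (limma adjusted p = 0.00438). Adm was at 5.82 ± 0.35 and 5.88 ± 0.06. Of 6 genes of the HIF subunits and their regulators, Arnt fell from 5.25 ± 0.10 to 4.84 ± 0.13 (limma adjusted p = 0.0219), below the bound. That call ended without control replicate 1 or 2 or cadmium replicate 2 or 3, at adjusted p of 0.0559 to 0.083. The oxygen sensor genes Egln1 and Egln2 changed by -0.31 and 0.06 and did not pass, although Egln1 did in 4 alternatives, among them centring on array medians. Hif1a was not analysed here. Of the transcription factors of glucose metabolism 0 of 3 passed, with Mlxip at 6.17 ± 0.01 and 5.99 ± 0.12.

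Across the 13 lists 92 of 160 distinct genes were measured, of which 18 fell and 6 rose. Without the 3 members, 15 of 89 fell, or 16.9%, beside 5.8% of all genes. Of the 92, 6.52% rose, beside 6.45% of all genes. In a fit of the 11569 protein-coding genes alone, not planned in advance, 10.7% of those genes fell. There 23 list genes fell, members included, and 6 rose. The lists were chosen with earlier results of these data known, so these shares are no test of the pathways. The median change of the 92 was 0.03, beside 0.04 over all genes. With arrays centred on their medians 24 list genes fell and 5 rose, where 8.09% of all genes fell, and on the background sets 33 fell and 5 rose, where 13.0% of all genes fell. Among the 2430 genes at or above the bound 16.4% fell, 12 list genes among them. The list genes tested there were the 20 with both group means above the bound and the 6 with 1. Leaving out control replicate 1 or 2 brought the total of 24 to 14 or 12, where 6.32% and 6.14% of all genes passed in place of 12.3%. Leaving out cadmium replicate 2 or 3 brought it to 14 or 13, where 6.11% and 6.27% of all genes passed. Of the 92, 66 had both group means below the bound.

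**Figure D4:**
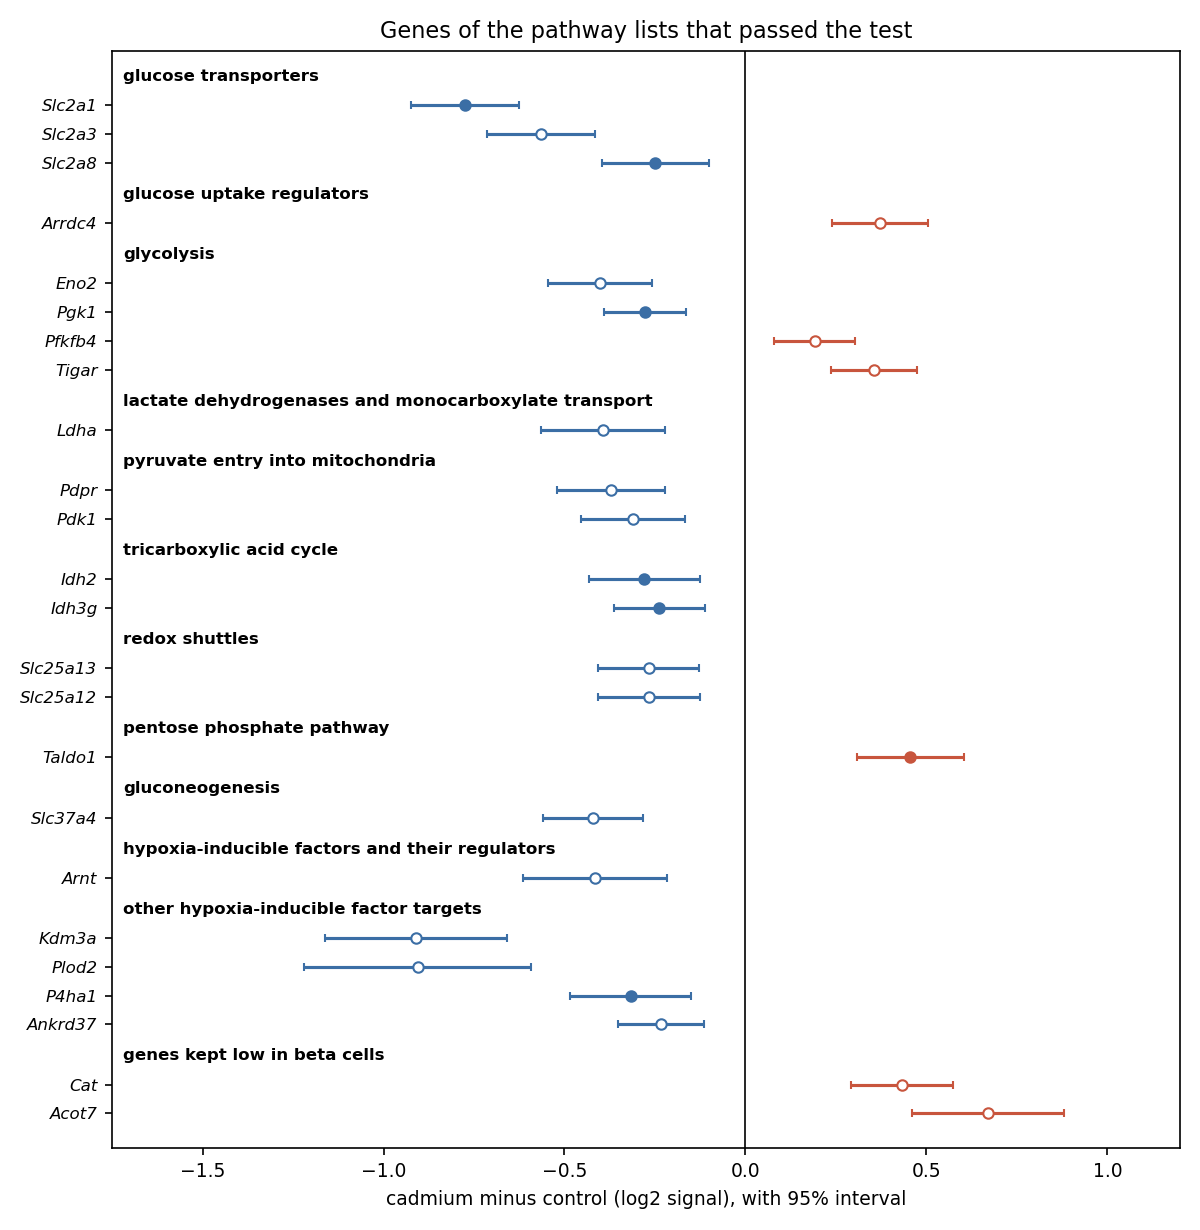
Change with cadmium (log2 signal, cadmium minus control) and 95% interval for the 24 genes of the pathway lists that passed the test, red higher and blue lower; filled symbols have both group means above the background bound. Slc2a1, Kdm3a and Plod2 lie farthest to the left, and Ldha and Pdk1 lie near the middle of the genes that fell.

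Markers of other cell types were looked at on the same arrays. In the fibroblast list, 1 of 3 measured genes was above the bound: the collagen gene Col3a1, which fell from 9.07 ± 0.13 to 8.06 ± 0.17 (limma adjusted p = 0.0018), while Col1a2 and Thy1 did not pass. The summed linear signal of that list, most of it from Col3a1, was 568 to 657 on control arrays and 297 to 371 on cadmium arrays. In the exocrine list 0 of 5 were above the bound, Cela2a rose (limma adjusted p = 0.0432), and the sum was 72.0 to 73.3 in control and 77.9 to 79.9 in cadmium arrays. Of the alpha, epsilon, endothelial and immune markers, 0 of 7 measured were above the bound and 0 passed. The part of these markers in the changes of Slc2a1, Ldha and Pdk1 was not tested.

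**Figure D5:**
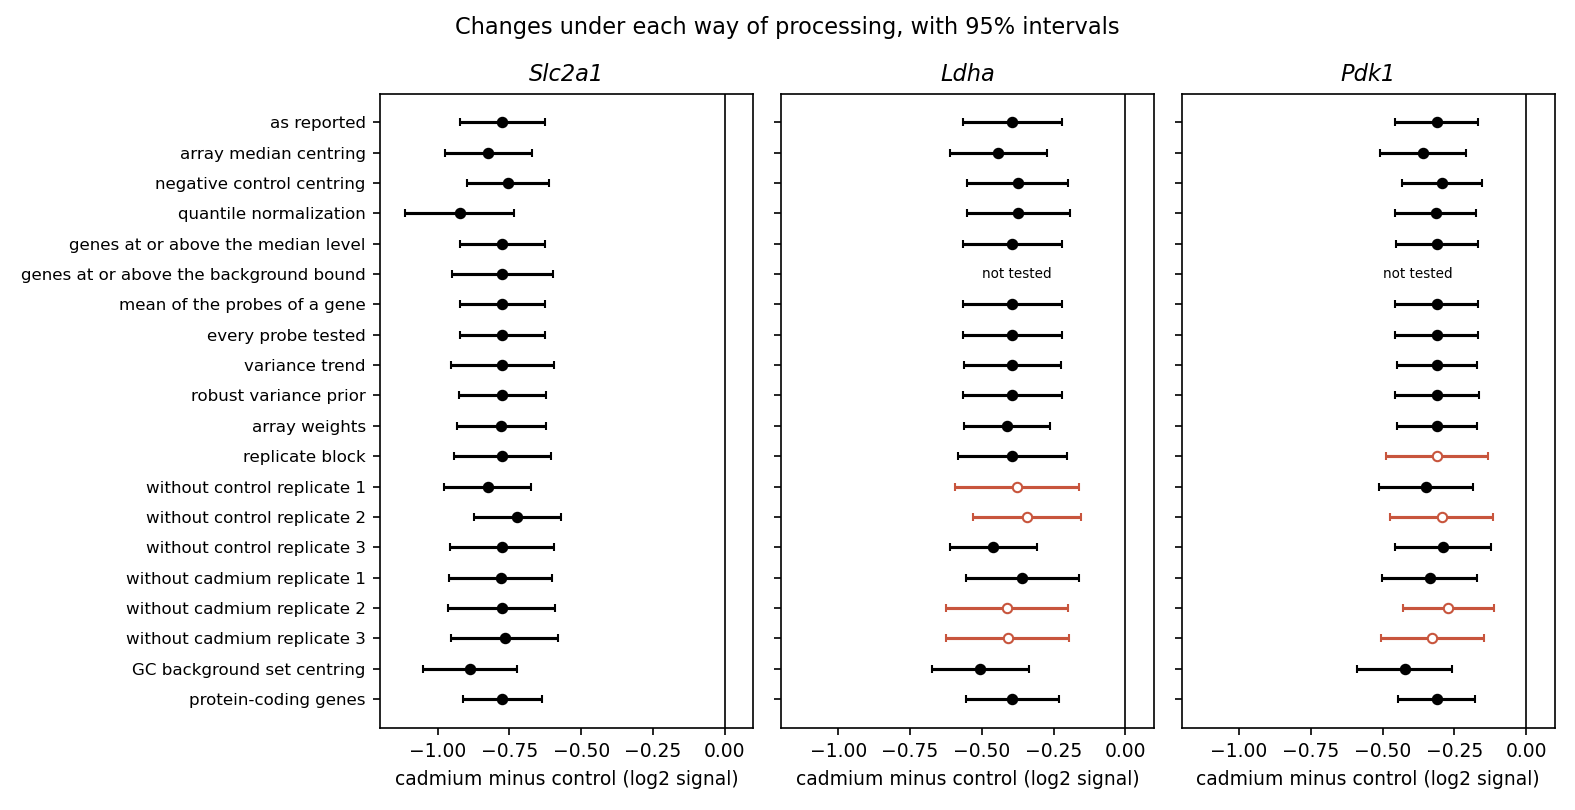
Change of each member (log2 signal, cadmium minus control) with its 95% interval as reported and under the other ways of processing; open red symbols did not pass at an adjusted p under 0.05. All estimates lie below 0, between -0.92 and -0.72 for Slc2a1, -0.51 and -0.34 for Ldha and -0.42 and -0.27 for Pdk1.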

How the data were processed

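Biotin-labelled total RNA was read on 6 arrays, and the table deposited by the authors holds 1 log2 signal per transcript cluster or control probe set and array. The log2 scale is inferred from the values, which run from 0.446 to 13.1. How the authors corrected, normalized and summarized the signals, and with which software, is not stated in the labels. Of 46478 rows, 39746 were transcript clusters. The platform annotation gave 18801 of these a single gene symbol, 1344 more than 1 and 19601 none, and only the first were named. RefSeq (GRCm38.p6) updated 728 symbols, and the brightest probe stood for each of 18572 genes. The number of value columns without a sample was 0.

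Groups and replicate numbers came from the titles. The fit over all genes used lmFit and eBayes of limma 3.58.1 (R 4.3.3) with group as its only term, Benjamini-Hochberg adjustment and a threshold of 0.05. Changes are cadmium minus control. The number of arrays limits the precision. Differences between genes used exact two-sided permutation tests and intervals from the pooled SD of the 6 arrays (SciPy 1.17.1). A fold is given only where a group mean reached the bound. The members and the lists were chosen with earlier results of these data known. Named are the members, every list gene that passed, and the 4 nearest profiles of each member, without predicted and small RNA genes. Up to 3 brightest others of each list were followed through the alternatives, and only some of them are named. Slc2a2, Ldhc, Pdk4, and the marker genes named outside the pathway lists, were chosen after their values were seen. Listed genes without a single-symbol probe were not analysed here. Alternatives covered scaling, filters, probes, variance models, weights per array, a replicate block, left-out arrays and a threshold of 0.01.

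The fit was checked on simulated data. Promoter sequences are from RefSeq (GRCm38.p6). Figures were drawn with matplotlib 3.10.9.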

Additional observations from a re-analysis of the deposited data

Results flagged for a closer look

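Except where arrays were centred on all background sets, the 10 GC-rich background probe sets, named GC16 to GC25, enter no comparison of genes. Their mean did not overlap between groups and was higher with cadmium, at 5.42 ± 0.04 against 5.19 ± 0.05 (SD, n = 3). Cadmium minus control was 0.22, with an exact permutation p of 0.1, which is the lowest possible with these arrays. Slc2a1, Ldha and Pdk1 moved the opposite way on the same arrays. With 3 arrays in each group, single arrays were not examined as outliers.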

How the results depend on the processing

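All 3 members stayed lower with cadmium in every alternative that was run, and Slc2a1 also kept its call, at adjusted p of 0.000495 to 0.0114. Only the centrings and quantile normalization could have turned the sign. The other alternatives kept the same change, or dropped or weighted arrays of groups that did not overlap. At a threshold of 0.01 Ldha (-0.39) and Pdk1 (-0.31) did not pass, 859 genes did in place of 2276, and 11 list genes in place of 24. Leaving out 1 array gave changes of -0.83 to -0.72 for Slc2a1, -0.46 to -0.34 for Ldha and -0.35 to -0.27 for Pdk1, and counts of 1134 to 2352 genes and 12 to 24 list genes. The count of genes was 2352 without cadmium replicate 1, 2097 without control replicate 3 and 1134 to 1173 without any other array, and the cause was not tested. Within arrays, Slc2a1 minus Ldha ranged from -0.45 to -0.32, Slc2a1 minus Pdk1 from -0.51 to -0.43 and Ldha minus Pdk1 from -0.17 to -0.02. Genes at or above the bound alone gave 868 and 15 calls, with fewer genes tested and without Ldha and Pdk1. Array weights gave 3358 calls and 35 in the lists. Centring on the 23 background sets, chosen after seeing the data, gave 38 calls in the lists. Of the genes called, 52.6% were higher as deposited, 35.3% with arrays centred on their medians and 20.6% with the background sets.

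Same-numbered arrays did not deviate together: their deviations correlated at -0.11 to 0.05, and 0 of 6 arrays were nearest to the array of the same number. With the replicate number as a block, 1372 genes and 13 list genes passed, and Pdk1 (-0.31, adjusted p = 0.065) did not. Pgk1, P4ha1, Ankrd37, Arnt, Idh2, Idh3g, Slc25a12, Slc25a13, Slc2a8 and Pfkfb4 also lost their calls with that block. The 21 list genes other than the members that passed as reported did so in 333 of 408 alternatives. Their sign never turned, which few of the alternatives allowed. Counting Slc2a1, 12 list genes passed in every alternative at a threshold of 0.05. The brightest list genes that did not pass, 36 in number and not all named here, passed in 25 of 695 alternatives, Pdha1 and Egln1 among them. Signals below the bound limit Ldha, Pdk1 and most of the lists.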
